A study of Mus musculus with 2 samples.

Results

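The genes described here take up, carry and store fatty acids: the nuclear receptor gene Pparg, the fatty acid binding protein genes Fabp4 and Fabp5, the uptake gene Cd36, the lipase gene Lpl, the acyltransferase gene Mogat1, the droplet fusion genes Cidea and Cidec, and the perilipin genes Plin4 and Plin5. They were chosen by name as one pathway, with results of the same 2 arrays already known, so every value below is a description without a test. The 10 genes were represented by 11 probe sets, out of 19938 genes measured by probe sets that name a single gene. No probe set named one of them together with another gene.

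Carcinoma tissue was measured as 1 sample per genotype on whole-transcript arrays, 2 arrays in all. Both samples came from hepatocellular carcinoma of mice given DEN (diethylnitrosamine, a carcinogen activated in hepatocytes). One sample was wild-type and the other HLF-deficient, and they are called the wild-type and the HLF-deficient tumour here. HLF (hepatic leukemia factor) belongs to the PAR bZIP family of transcription factors. The sources used here do not give strain, age, DEN dose, the Hlf allele, or whether a sample held tissue of 1 or several tumours or mice. With 1 array per genotype there is no replicate check, and differences between the tumours carry no error estimate or p-value.

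Dietary and adipose fatty acids reach liver cells bound to albumin or inside lipoproteins, whose triglyceride is opened by lipases. Inside the cell they are bound by small carrier proteins, esterified, and kept in lipid droplets coated by perilipins, and CIDE proteins let droplets merge. PPAR-gamma, which is low in normal hepatocytes and high in adipocytes, is a known activator of several of these genes in fatty liver, where it acts as a dimer with RXR at repeats of a short hexamer. FABP4 and CD36 are also made by endothelial cells and macrophages.

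Values are RMA levels on a log2 scale, where 1 unit is a 2-fold change, and a positive difference means a higher level in the HLF-deficient tumour. Where levels are given as a pair, the wild-type tumour comes first. Levels are compared between tumours for the same probe set and not between genes. A level was counted as expressed from 2.98, called the floor, the 95th percentile of 1248 probe sets of odorant, pheromone and taste receptor genes. The 14575 genes at or above it in at least 1 tumour were compared. Hlf itself had levels of 5.13 and 3.79, a difference of -1.34. Hepatocyte markers were high in both tumours, with Alb (albumin) at 12.55 and 12.41, Apoa1 at 12.42 and 12.40 and Apoh at 11.24 in both. As a guide to probe noise, the differences of 2 probe sets of the same gene were compared in 696 genes, which gave an SD of 0.23 for a single probe set. That SD holds no spread between mice or tumours.

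Promoter sequences are shown for Cd36, which was beyond 2-fold between the tumours, and for 3 genes that were not, to set their motif content side by side. Each window shown holds a motif match. RefSeq windows of assembly GRCm38.p6, each of 300 bases (250 before a start and 50 after it), were held for 6 of the 10 genes, with 10 windows in all. No window was held for Fabp4, Fabp5, Lpl or Cidea. The 250 bases before the start are printed 5′ to 3′ on the gene's strand, with every motif match in capitals. Cd36 lies at chr5:17835897-17836146 on the minus strand, Pparg at chr6:115362099-115362348 on the plus strand, Plin5 at chr17:56117549-56117798 and Cidec at chr6:113434765-113435014, both on the minus strand. The Cd36 window is inside the annotated gene, which runs from 17781690 to 17888959, so it belongs to a start within that span. The Pparg and Cidec windows also lie within their genes' spans, and the Plin5 window overlaps the end of its gene's span.
Cd36: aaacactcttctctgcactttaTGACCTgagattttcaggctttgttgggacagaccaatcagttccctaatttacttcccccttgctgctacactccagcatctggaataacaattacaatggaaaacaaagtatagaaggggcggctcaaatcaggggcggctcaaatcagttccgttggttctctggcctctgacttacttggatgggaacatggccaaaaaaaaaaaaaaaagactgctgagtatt
Pparg: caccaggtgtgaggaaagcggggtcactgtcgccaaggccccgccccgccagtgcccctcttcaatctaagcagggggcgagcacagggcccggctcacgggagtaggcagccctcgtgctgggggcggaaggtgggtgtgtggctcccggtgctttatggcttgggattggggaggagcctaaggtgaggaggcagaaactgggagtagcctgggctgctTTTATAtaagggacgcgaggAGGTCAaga
Plin5: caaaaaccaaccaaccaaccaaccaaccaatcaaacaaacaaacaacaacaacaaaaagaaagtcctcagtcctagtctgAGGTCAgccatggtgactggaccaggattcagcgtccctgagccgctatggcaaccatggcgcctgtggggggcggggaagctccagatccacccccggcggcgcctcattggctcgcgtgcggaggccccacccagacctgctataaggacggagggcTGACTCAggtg
Cidec: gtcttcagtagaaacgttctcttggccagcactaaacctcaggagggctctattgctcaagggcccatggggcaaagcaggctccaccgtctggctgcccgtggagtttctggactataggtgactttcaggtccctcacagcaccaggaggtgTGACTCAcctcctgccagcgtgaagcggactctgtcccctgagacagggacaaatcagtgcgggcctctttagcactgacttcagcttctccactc

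Windows were searched on both strands for AGGTCA, the nuclear receptor hexamer, for the DR1 element (a pair of such hexamers 1 base apart, the PPAR site), for the PAR bZIP sites TTACGTAA and TTATGTAA, for the AP-1 site TGACTCA and for TATAAA. A DR1 match also holds the hexamer. The hexamer was found in 5 of the 10 windows, belonging to Cd36, Pparg and Plin5, against 16.3% of all 32851 windows in the table. In Cd36 it lies on the opposite strand, at positions -228 to -223 from the start, and is read as TGACCT above. The Pparg window shown has it at -9 to -4, after a TATAAA on the opposite strand at -29 to -24. Plin5 has it at -170 to -165 and an AP-1 site at -11 to -5, and the Cidec window shown has an AP-1 site at -96 to -90. The other Cidec window, which lies directly before the annotated gene, held 0 matches. The same was true of the Mogat1 and Plin4 windows and of another Pparg window, none of which is shown. The AP-1 site occurs in 5.2% of all windows. The exact DR1 element and both PAR bZIP sites were found in 0 of the 10 windows, and they are rare in this table, at 0.0396%, 0.119% and 0.938% of all windows. The hexamer therefore occurred in Cd36, which was beyond 2-fold, and in Pparg and Plin5, which were not. Fabp4, the other gene beyond 2-fold, had no window to search. A match describes letters only and shows no binding.

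Of the 10 genes, 9 were at or above the floor and Mogat1 was not. Fabp4 and Cd36 were more than 2-fold higher in the HLF-deficient tumour, and 0 of the 9 were lower by 2-fold. Over all genes compared, 1.5% were higher and 0.364% lower by this measure. Because these genes were chosen with this contrast known, the count is not read against that share. The median difference of the 9 genes as deposited was 0.06, beside 0.07 over all genes. The other 7 genes lay between -0.05 and 0.29, all within 1.5-fold, and 5 of the 9 differed by less than 0.1, as did 21.6% of all genes compared.

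**Figure D1:**
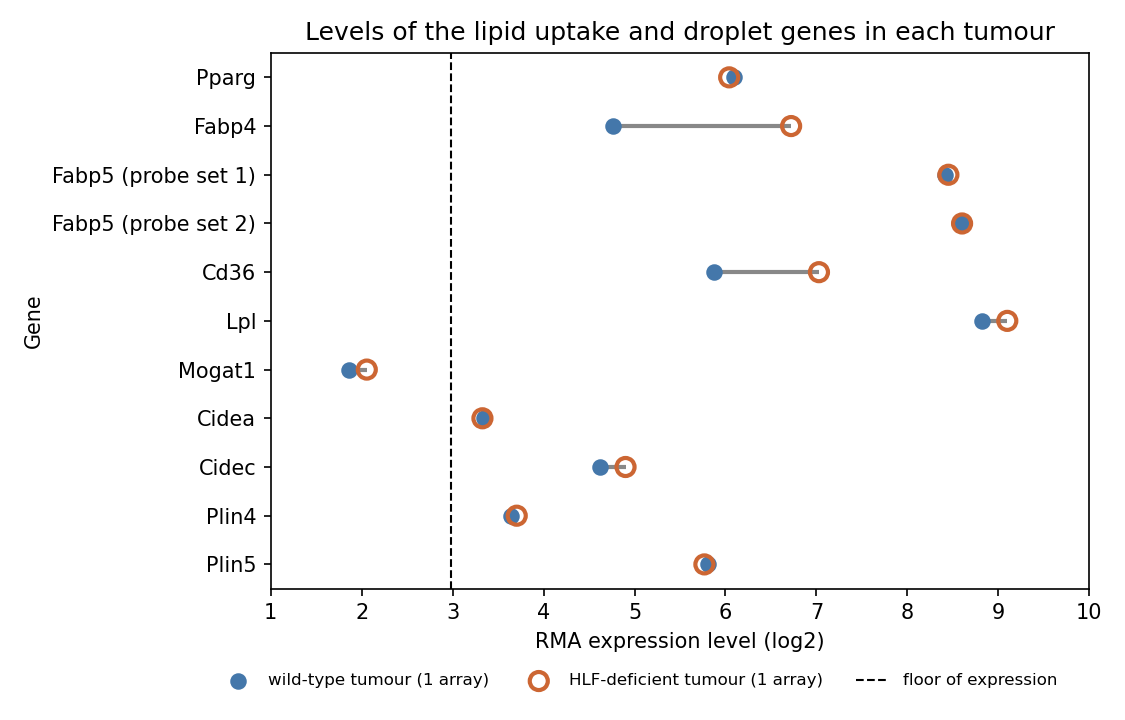
RMA level (log2, x axis) of each probe set of the 10 genes (y axis), with filled points for the wild-type and open circles for the HLF-deficient tumour (1 array each) and the floor as a dashed line. Fabp4 runs from 4.76 to 6.72 and Cd36 from 5.88 to 7.03, the circles of Pparg, Fabp5, Cidea, Plin4 and Plin5 lie on or beside their points, and Mogat1 is left of the floor.

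The transcript of Pparg, which encodes the regulator PPAR-gamma, was nearly level between the tumours as deposited. PPAR-gamma protein and its activity were not measured. Pparg had levels of 6.09 and 6.04, which were 3.11 and 3.06 above the floor. Its difference of -0.05 left the gene at 96.6% of its wild-type level. The probe set is annotated with 17 transcript accessions and gives a single level for the gene, so the isoforms that start at separate promoters were not told apart. The sign of this difference turned to 0.07 with each array centred on its median, and it was -0.25 after quantile normalization and -0.21 with the loess trend removed, each within 1.5-fold.

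Fabp4, the carrier also known as aP2, gave the largest difference of the set. Its levels were 4.76 and 6.72. The difference of 1.96, or 3.89-fold, ranked 32nd from the top among 14575 genes. Both levels were above the floor, by 1.78 and 3.74, so the fold is measured on both sides. Across the 4 scalings of the arrays it ran from 1.82 to 2.08.

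Fabp5, the epidermal type carrier, is encoded near Fabp4 on chromosome 3 and was level between the tumours. One of its probe sets read 8.42 and 8.45 and the other 8.59 and 8.60, differences of 0.04 and 0.01. Both probe sets carry the same 5 accessions. The sign was positive as deposited and with centred arrays (0.13), and negative after quantile (-0.07) and loess (-0.11) scaling.

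Cd36, a scavenger receptor that also promotes long chain fatty acid uptake, was the other gene beyond 2-fold. Its levels were 5.88 and 7.03. The difference of 1.15, or 2.22-fold, ranked 141st from the top. It was just under 2-fold after quantile normalization, at 0.95, and with the loess trend removed, at 0.98, and 1.27 with the arrays centred. Lpl, the lipase that opens triglyceride-rich lipoproteins, had levels of 8.82 and 9.10. Its difference of 0.28, or 1.21-fold, was close to the probe noise and remained positive under all 4 scalings, from 0.16 to 0.40.

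Mogat1, a monoacylglycerol acyltransferase gene that PPAR-gamma induces in fatty liver, read 1.86 and 2.06. Both levels were below the floor, by 1.12 and 0.92, so no difference is given. Of the fusion genes, Cidec (also Fsp27) had levels of 4.61 and 4.90, a difference of 0.29, or 1.22-fold. Cidea, best known from brown fat, read 3.35 and 3.33, only 0.37 and 0.35 above the floor. Its difference of -0.02 turned to between 0.10 and 0.14 under the other scalings. Neither fusion gene came near 2-fold in these samples.

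The perilipin genes Plin4 and Plin5 encode droplet coat proteins, Plin5 being the one of oxidative tissues. Plin4 read 3.64 and 3.70, a difference of 0.06, and Plin5 read 5.80 and 5.77, a difference of -0.04. The Plin5 difference was 0.09 with centred arrays and -0.22 and -0.18 after quantile and loess scaling. That of Plin4 was 0.18 with centred arrays and 0.20 after both quantile and loess scaling. Of the 10 genes, 4 changed the sign of a small difference between scalings (Pparg, Fabp5, Cidea and Plin5), and Cd36 was the only 1 whose place beyond 2-fold depended on the scaling.

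**Figure D2:**
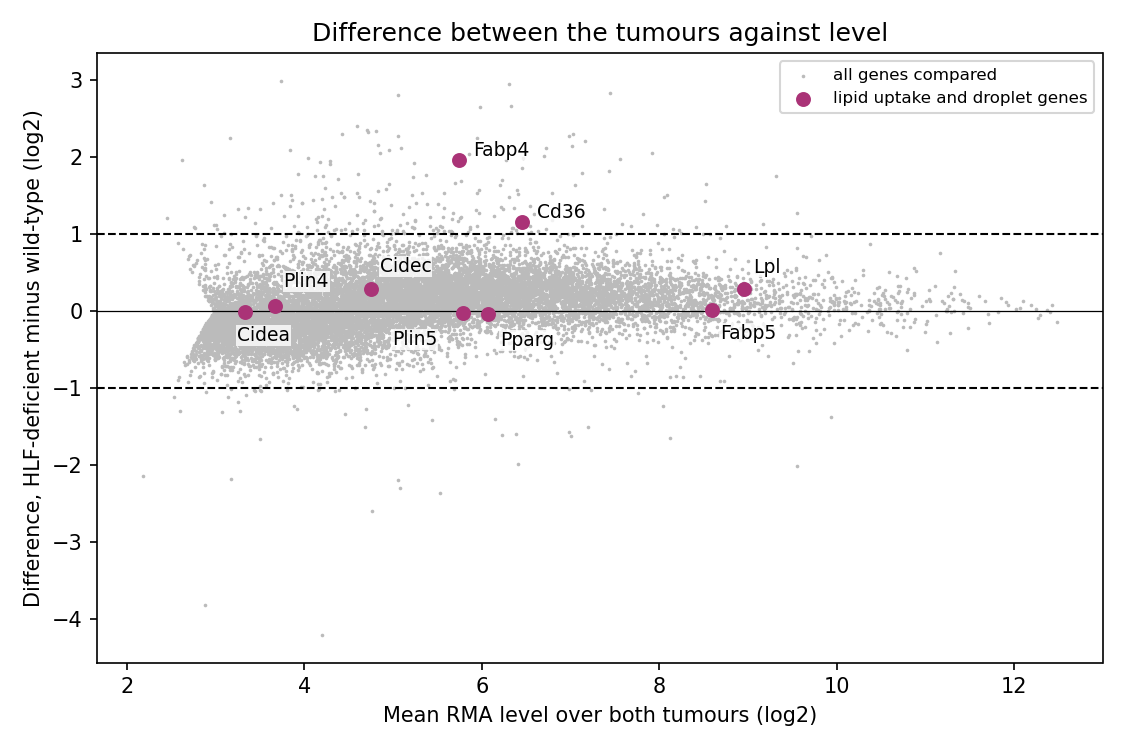
Difference between the tumours (log2, y axis) against mean level (log2, x axis) for the 14575 genes compared (grey) and the 9 lipid uptake and droplet genes at or above the floor (purple), with dashed lines at 2-fold. Fabp4 at 1.96 and Cd36 at 1.15 lie above the upper line, and the other 7 genes lie inside the grey band around 0.

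**Figure D3:**
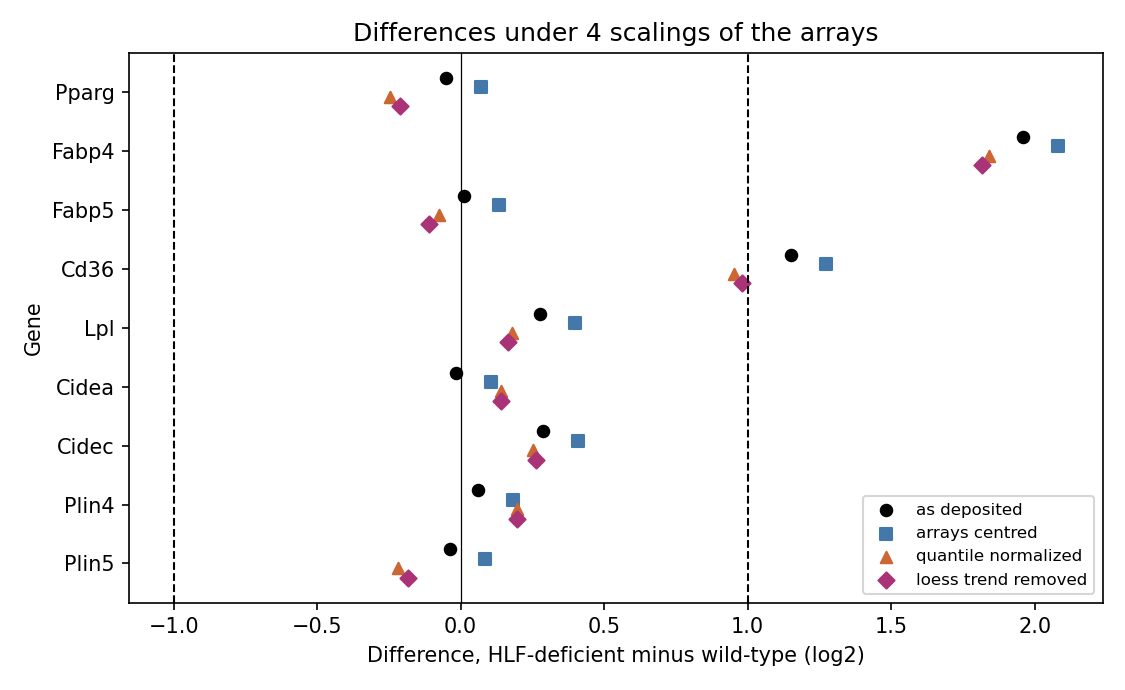
Difference between the tumours (log2, x axis) of each of the 9 genes (y axis) with the values as deposited, with centred arrays, after quantile normalization and with the loess trend removed, with dashed lines at 2-fold. Fabp4 stays beyond the line from 1.82 to 2.08, Cd36 lies on either side of it from 0.95 to 1.27, and the other genes stay well inside.

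In assembly GRCm38.p6, Fabp5 and Fabp4 lie on chromosome 3 with 4 annotated genes between them, among which Pmp2 and Fabp9, both of the same carrier family, were below the floor in both tumours. The next gene after Fabp4 is Fabp12, with levels of 3.38 and 3.10. Plin4 and Plin5 are direct neighbours on chromosome 17 and were both nearly level as deposited. Their small differences had opposite signs as deposited and after quantile and loess scaling, and were both positive with centred arrays. Lrg1, the gene after Plin5, differed by 0.71 and was named after its value was seen. Among 48 distinct expressed neighbours, up to 3 on each side of each of the 10 genes and not among the 10, 0 differed by 2-fold, where 1.5% of all genes were higher and 0.364% lower, and the median difference was 0.02. The genes whose difference came closest to that of Fabp4 were Mmp12 (1.96), Orm2 (1.97), Btg2 (1.98) and Bcl6 (1.94). With 2 arrays this likeness rests on a single difference per gene.

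The wider pathway was described through 8 lists without the 10 genes, of which 129 genes were measured and 120 compared. In all, 3 of the 120 were higher by 2-fold (2.5%, beside 1.5% of all genes) and 1 was lower (0.833%, beside 0.364%), and their median difference was 0.14 beside 0.07. Counts of single lists below stand beside the same shares of all genes. Cav1 is in both the transport and the droplet coat list and is counted once in these totals.

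Other carriers of the fatty acid binding protein family stayed within 2-fold. All 7 compared had negative differences as deposited, beside 41.6% of all genes, with a median of -0.28, although none reached 2-fold and Crabp2 (-0.06) turned positive under the other scalings. The 41.6% is not matched for level. Fabp3, Fabp12, Crabp1 and Crabp2 had low mean levels, from 2.88 to 4.34. Leaving out low-level genes with the 99th percentile floor moved the median over all genes from 0.07 to 0.13. Fabp1, the liver type and main carrier of hepatocytes, had levels of 11.34 and 10.92, a difference of -0.41. Fabp2, the intestinal type, had levels of 8.51 and 7.97, a difference of -0.54. Fabp7 differed by -0.33, Fabp12 by -0.28 and Crabp1 by -0.18, and Fabp3 was at the floor with 2.98 and 2.77. Fabp6 was below the floor in both tumours. Fabp3 fell below the floor when the floor was set again after each scaling. The median of the remaining genes was -0.18 with centred arrays, -0.27 after quantile and -0.26 after loess scaling. Over the same 7 genes as above the median was weaker than as deposited, at -0.16 with centred arrays, -0.14 after quantile and -0.13 after loess scaling.

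Among 14 compared genes of fatty acid transport and activation, 1 was higher by 2-fold and 0 were lower, with a median of 0.13. Cav1, caveolin-1 of caveolae and a binder of fatty acids at the cell surface, read 5.52 and 6.75, a difference of 1.23, or 2.35-fold, and 1.06 or more under all 4 scalings. Its partner Cav2 differed by 0.63. Of the fatty acid transporter genes, Slc27a2 was at 0.03 and Slc27a5 at -0.12, while Acsl5, an acyl-CoA synthetase gene, was at -0.24 and Acsbg1 at -0.61. Both transporter genes were picked with their values known, and Slc27a2 was negative after quantile and loess scaling.

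Genes of lipoprotein lipolysis and uptake had a median of 0.33 over 11 compared genes, with 0 beyond 2-fold as deposited. Vldlr, a lipoprotein receptor gene, read 5.29 and 5.80, a difference of 0.52, and Angptl8, an inhibitor of lipase action after feeding, 8.84 and 9.34, a difference of 0.50. Gpihbp1, which anchors lipoprotein lipase on capillaries, differed by 0.21. Apoa5, an activator of that lipase, went the other way, with levels of 9.19 and 8.28 and a difference of -0.91, which passed 2-fold after quantile and loess scaling, at -1.03 in both. Apoc3, an inhibitor, was level at -0.06, or 0.06 with centred arrays.

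Of 20 droplet coat and growth genes, 2 were higher by 2-fold and none lower, with a median of 0.23. They were Cav1 and Tmem159, whose product (also called LDAF1 or promethin) assembles with seipin where droplets form. Tmem159 read 4.09 and 5.27, a difference of 1.18, or 2.27-fold, and was at 1.17 or above under all 4 scalings. The widely expressed coat gene Plin2 read 9.74 and 10.16 and Plin3 read 7.18 and 7.59, differences of 0.42 and 0.41 that were positive under every scaling. Plin1, the adipocyte coat gene, had levels of 4.27 and 4.14 and did not follow them, at -0.12, or 0.00 with centred arrays. Cideb differed by 0.22, Hsd17b13 by -0.14 and Fitm1 by -0.26. As deposited, Plin2 and Plin3 therefore differed more than Plin1, Plin4 and Plin5. After quantile normalization Plin2 was at 0.34 and Plin3 at 0.24, beside 0.20 for Plin4 and -0.22 for Plin5.

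Droplet lipolysis genes had a median of 0.07 over 14, with 0 beyond 2-fold, and the median turned negative after loess scaling, to -0.05, and after quantile normalization. Pnpla2, the main triglyceride lipase of droplets, differed by 0.44 and Pnpla8 by 0.36, while G0s2, an inhibitor of the Pnpla2 product, was at -0.41 and the carboxylesterase gene Ces1f at -0.74. Triglyceride and sterol ester synthesis genes had a median of 0.07 over 18, also with 0 beyond 2-fold. Gpat3 differed by 0.41 and Gpam, the mitochondrial first step, by -0.24, with Agpat1 at -0.18. Agpat4 read 2.71, under the floor, and 3.14, so it was at least 1.12-fold higher. Mogat2, the other acyltransferase of the Mogat1 type, sat at the floor with 2.98 in both tumours.

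Of the list of other PPAR factors, partners and coregulators, 0 of 22 were beyond 2-fold, a count near the share of all genes. Their median was 0.10, or -0.01 after quantile and -0.00 after loess scaling. Cebpb and Cebpd, bZIP factors that precede Pparg in fat cell differentiation, had the largest differences, 0.69 and 0.57. Prdm16 and Ppargc1b, of brown fat and mitochondrial programmes, were lowest at -0.33 and -0.23. Ppara, the PPAR of hepatocytes, read 7.60 and 7.91, a difference of 0.30, and was likewise picked with its value known. PPAR targets outside droplets had a median of 0.26 over 15. Txnip was at 1.01, or 0.88 after quantile and loess scaling. Pck1 was at 0.94, or 1.06 with centred arrays. The PPAR-alpha target Cyp4a10 read 5.07 and 4.07, just beyond 2-fold lower, and was inside 2-fold with centred arrays (-0.88) and loess scaling (-0.99). Ehhadh, a peroxisomal oxidation gene of the same kind, was at -0.43. PPAR targets therefore lay on both sides of 0.

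**Figure D4:**
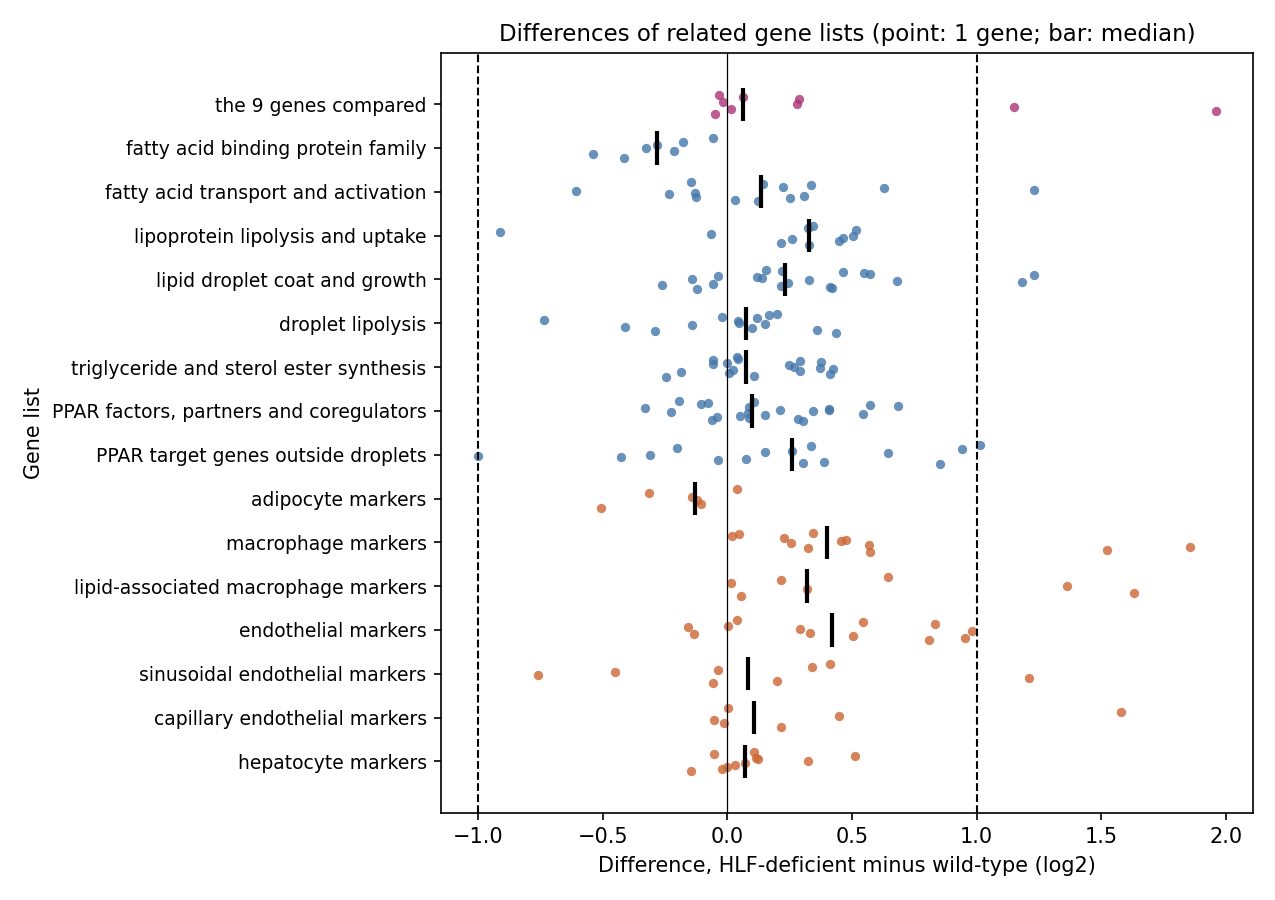
Differences between the tumours (log2, x axis) of single genes (points) by list (y axis), for the 9 genes compared (purple), the 8 pathway lists (blue) and 7 of the cell type marker lists (orange), with black bars at list medians and dashed lines at 2-fold. The 7 compared genes of the carrier family other than Fabp4 and Fabp5 lie below 0 around a median of -0.28. The macrophage markers lie wholly above 0 around 0.40, and most pathway genes stay inside the lines.

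Fabp4 and Cd36 are also made outside hepatocytes, so markers of such cells are given beside them. In bulk tissue, fewer cells of a type and less RNA per cell cannot be told apart. Signs and 2-fold counts below stand beside all genes compared, of which 41.6% were negative, 1.5% higher by 2-fold and 0.364% lower. These shares are not matched for level, and most adipocyte and muscle markers had mean levels under 5. Genes of mean level 5 to 7, the range of Fabp4, Cd36, Cd68 and Pecam1, had a median difference of 0.22. All 12 macrophage markers had positive differences as deposited, with a median of 0.40, and 2 passed 2-fold. Their summed levels were 9.56 and 10.17, with Lyz2 the highest marker at 7.74 and 8.31. Such sums add the unlogged levels of all measured markers of a list, also those below the floor, and are given on the log2 scale. The brightest probe sets therefore weigh most in them. Cd14 had a difference of 1.86 and Cd68 of 1.53, while Adgre1 (F4/80) was at 0.57, Csf1r at 0.32 and Mrc1, picked with its value known, at 0.02, the last turning negative under quantile and loess scaling. Of 7 lipid-associated macrophage markers, Lgals3 was 2.57-fold and Gpnmb at least 1.63-fold higher, while Trem2 was level at 0.05, with a list median of 0.32. Its summed levels of 12.58 and 12.71 are mostly Apoe (12.23 and 12.25), which hepatocytes also make. Kupffer cell markers had a median of -0.07 over 6 and summed levels of 8.46 and 8.23, with 3 positive and 3 negative differences. Clec4f was at -0.37, Vsig4 at -0.36, Timd4 at 0.01, Marco at 0.12 and Cd163 at 0.26.

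Endothelial markers had a median of 0.42 over 12, 10 of them positive as deposited and 0 beyond 2-fold, and summed levels of 9.53 and 10.04. Cdh5 was at 0.95 (1.08 with centred arrays), Pecam1 at 0.81 and Kdr at 0.51. Sinusoidal markers had a median of 0.08 over 8 and summed levels of 9.45 and 9.30, with 4 positive and 4 negative differences. Lyve1 was 2.31-fold higher, Stab1 was at 0.20, Stab2 at -0.06 (0.07 with centred arrays), Fcgr2b at -0.45 and Clec4g at -0.76. Capillary markers other than Fabp4 and Cd36 had a median of 0.11 over 6 and summed levels of 8.28 and 8.51. Among them Cd34 was 2.99-fold higher, Gpihbp1 was at 0.21 and Aqp1 at -0.02 (0.11 with centred arrays), and Meox2 and Rbp7 were below the floor in both tumours. The part of macrophages and endothelial cells in the differences of Fabp4 and Cd36 was not tested.

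Adipocyte markers were not higher. Adipoq (adiponectin), the defining adipocyte gene, was below the floor in both tumours at 2.29 and 1.81. Of the 6 adipocyte markers compared, 5 had negative differences as deposited, with a median of -0.13, and Retn was at -0.51. With centred arrays Lep was at 0.02 and Plin1 at 0.00. The summed adipocyte levels of 9.75 and 9.45 are mostly Thrsp (9.61 and 9.30). Brown adipocyte markers had a median of -0.15 over 5 and summed levels of 7.69 and 7.41. Cox8b was below the floor in both tumours and Ucp1 was at the floor with 3.08 and 2.93. Elovl3 was at -0.58, and its levels of 6.72 and 6.13 are a large part of that sum. Muscle, another source of Cd36 and Lpl transcripts, had a median of -0.18 over 7 markers and summed levels of 7.17 and 6.95, with Ckm at -0.59, Acta1 at -0.18 and Myh1 below the floor. Stellate cell and fibroblast markers had a median of 0.21 over 10 (9.42 and 9.63 summed), 7 positive and 3 negative, with Reln at 0.24, Lrat at -0.13 and Des at 0.17. In that list Col1a2 was highest at 0.76, followed by Pdgfrb at 0.73, and Hand2 was lowest at -0.43. Marco, Cd163, Fcgr2b, Clec4g, Apoe, Col1a2, Pdgfrb and Hand2 were picked with their values known. Cholangiocyte markers had a median of -0.10 over 5 (6.55 and 6.53 summed), with Epcam at 0.13, Krt19 at -0.17 and Krt7 at -0.10 (0.02 with centred arrays). Hepatocyte markers were nearly level, with a median of 0.07 over 11 and summed levels of 15.16 and 15.21.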

How the data were processed

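The deposited table holds log2 expression values of 35556 probe sets on 2 arrays. The submitters' processing notes name RMA and Affymetrix Expression Console, without a version. The log base was read from the values (0.25 to 12.74), and the set of arrays normalized as one is not stated. Gene names came from GEO's platform annotation of the probe sets: 21789 name 1 gene, 1621 several and 12146 none in the tables used here. Only the first kind was used, with symbols looked up by gene identifier in RefSeq (21698 found). For 999 genes with several probe sets, the one with the highest mean level was taken. Differences, list counts and medians were computed with Python 3.11.15, pandas 2.3.3 and numpy 2.4.6, and the loess trend with statsmodels 0.14.6 (span 0.4). The rule of size was 2-fold. Array number limits the precision.

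The 10 genes, the lists and the tests were chosen with earlier results of these data known. Genes named from the lists are those of the members' own families, those beyond 2-fold, the 2 highest and 2 lowest of each pathway list, and the first 3 of each cell type list. Of 148 pathway symbols listed, 19 were not analysed here, and of 106 cell type symbols, 5. Alternatives were 3 other scalings, averaging probe sets per gene, floors at the 90th and 99th percentiles, values set to the floor, and 1.5-fold and 4-fold rules. The rule was tested on simulated data. A comparison of protein sequences was planned and not made.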

Additional observations from a re-analysis of the deposited data

How the results depend on the processing

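Fabp4 and Cd36 were both beyond 2-fold under 5 of the 7 other settings of scaling, floor and probe set choice and with a 1.5-fold rule. After quantile normalization and with the loess trend removed the count of the 9 genes higher by 2-fold was 1, Cd36 being at 0.95 and 0.98. By construction both remove differences that follow the level, and genes of mean level 5 to 7, where Cd36 and Fabp4 lie, had a median difference of 0.22 as deposited. With a 4-fold rule it was 0. No setting put any of the genes lower by 2-fold. Over all genes, 929 were higher and 454 lower by 1.5-fold, and 27 and 9 by 4-fold, and with the arrays centred 294 were higher and 32 lower by 2-fold, against 218 and 53 as deposited. Centring adds 0.12 to every difference and moved the median over all genes from 0.07 to 0.20. The median of the lipid genes was 0.18 after quantile and 0.16 after loess scaling, beside 0.02 and 0.04 over all genes. Over the settings it ran from 0.06 to 0.28. The latter, beside 0.13 over all genes, came with the 99th percentile floor, which left 7 of the lipid genes without Cidea and Plin4. Levels near the floor, as of those 2 genes, limit what RMA values can show. No paired analysis was possible because each genotype has 1 array.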
